A study of Mus musculus with 5 samples.

Results

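Cell cycle genes were examined in FOXJ1-GFP+ cells, which were sorted as ciliated cells from the embryonic mouse lung. The set was a list of 52 genes: 9 cyclins, kinases and a phosphatase of G1, 13 genes of S phase and DNA replication, 20 genes of G2 and mitosis, 7 inhibitors of cyclin-dependent kinases and 3 pocket proteins of the retinoblastoma family. A gene was measured where the array carried a probe set annotated to that gene alone, and it was represented by the one of these with the highest mean. By this rule 51 of the 52 were measured, out of 18193 genes in all. Ccnb1 was the exception and is not analysed here.

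All samples belonged to 1 group, GFP+ cells sorted at E17.5 out of FOXJ1-GFP lungs. There were 5 biological replicates, and each had its own Affymetrix array. FOXJ1-GFP mice, in which a FOXJ1 promoter drives GFP, were mated with the out-bred ICR strain. Lungs that were GFP+ were taken apart in trypsin with EDTA, and GFP+ cells were collected by flow cytometry, so the population is defined by the reporter alone. No GFP- or undifferentiated sample is analysed here, so no gene could be called enriched, and how many embryos made up a replicate is not known here.

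The deposited values are log2 signals between 2.37 and 15.11. A gene was called above background where its mean over the 5 arrays exceeded a level of 7.62 (limma, one-sided, Benjamini-Hochberg adjusted p under 0.05). Of the means of 144 genes that these cells should lack, 95% lie below that level. These genes were 75 olfactory, vomeronasal and taste receptor genes and 69 genes of liver, retina, muscle, pancreas, brain and other tissues. Above it lay 60.7% of all genes, against which each count below is read. Probe sets differ in brightness by their own sequence, so levels of different genes are not ranked. P-values measure only the spread between these 5 samples. Of 15 markers of multiciliated cells, 14 were above background, and the mean deviation of these 14 spanned 0.06 between arrays. The exception was Spag6 (3.67 ± 0.13, SD, n = 5), which was measured by 1 probe set, so absence of its RNA is not shown. Markers of other lung cells were above background as well. These were 10 of 10 endothelial, 9 of 9 alveolar type 2 and 7 of 7 alveolar type 1 genes. Other lists gave 9 of 12 mesenchymal, 6 of 9 club and goblet and 4 of 5 neuroendocrine genes. White blood cell genes gave 9 of 14 (64.3%), near the 60.7% of all genes. Lower shares were found for mesothelial (3 of 6), basal (2 of 6) and red blood cell genes (1 of 8). Fewer labelled cells of a type and less RNA per cell cannot be told apart in such bulk samples. Pearson's r between arrays, across probe sets, lay between 0.987 and 0.994, with replicate 3 the least like replicates 1 and 2 (0.987 each).

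In a dividing cell, D cyclins with Cdk4 and Cdk6, then E cyclins with Cdk2, phosphorylate the pocket proteins and free E2F factors, which switch on the genes of DNA replication. A cyclins with Cdk2 and Cdk1, and B cyclins with Cdk1, then drive S phase and mitosis, and the Cip/Kip and INK4 proteins hold these kinases back. Multiciliated cells have left the cycle, yet they build many centrioles at once, and in mouse cells this has been shown to use mitotic regulators such as Cdk1 and Plk1 without division.

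The genes of S phase and of mitosis differ in the regulatory sequence at their promoters. E2F factors bind TTCCCGC or TTGGCGC and related letters (TTCGCGC and TTGCCGC were also searched), and mitotic genes carry the cell cycle genes homology region, or CHR, with the letters TTTGAA or TTCGAA, often beside CCAAT boxes that bind NF-Y. Both strands were searched in RefSeq windows of 300 bases, from 250 before to 50 after a transcription start (GRCm38.p6). Overlapping matches were each counted, and the motif letters do not contain one another. Of the 51 measured genes 41 had a window. The CHR letters were in 12 of 16 genes of G2 and mitosis (75%), against 2 of 11 of S phase (18.2%), 1 of 6 inhibitors (16.7%), 0 of 6 G1 genes and 21.7% of all 27025 genes with a window. The E2F letters were in 8 of 11 S phase genes (72.7%), against 2 of 16 of G2 and mitosis (12.5%), 2 of 6 of G1 (33.3%), 2 of 6 inhibitors (33.3%) and 10.9% of all genes. Of 2 pocket proteins with a window, Rbl2 held CHR letters and Rbl1 held E2F letters (1 of 2 each). Among genes above background on these arrays the shares were 16.1% for CHR and 20% for E2F. A CCAAT box was in 14 of 16 genes of G2 and mitosis (87.5%), 8 of 11 of S phase (72.7%) and 41.1% of all genes. It was in 3 of 6 genes of G1, 4 of 6 inhibitors and 0 of 2 pocket proteins. A match is a run of letters and not a shown binding site. Printed here are the 250 bases before the start of 6 genes that the results turn on: Cdk1, Mki67 and Top2a with CHR letters, Mcm5 and Mcm6 with E2F letters, and Ccna1 with neither. Capitals mark matches to CHR, E2F or CCAAT letters on either strand, and the last base printed is the one before the start.
Cdk1, chr10:69352913-69353162, minus strand: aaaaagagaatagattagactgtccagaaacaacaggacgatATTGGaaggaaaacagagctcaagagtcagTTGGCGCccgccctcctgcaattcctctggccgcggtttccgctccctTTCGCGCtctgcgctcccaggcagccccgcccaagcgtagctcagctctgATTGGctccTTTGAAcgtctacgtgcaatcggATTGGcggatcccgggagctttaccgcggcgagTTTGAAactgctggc
Mki67, chr7:135716380-135716629, minus strand: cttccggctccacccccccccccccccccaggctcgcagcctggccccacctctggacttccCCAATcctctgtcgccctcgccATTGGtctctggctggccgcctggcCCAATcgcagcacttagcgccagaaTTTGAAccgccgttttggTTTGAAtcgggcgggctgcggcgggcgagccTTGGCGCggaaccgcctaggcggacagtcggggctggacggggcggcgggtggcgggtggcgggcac
Top2a, chr11:99024190-99024439, minus strand: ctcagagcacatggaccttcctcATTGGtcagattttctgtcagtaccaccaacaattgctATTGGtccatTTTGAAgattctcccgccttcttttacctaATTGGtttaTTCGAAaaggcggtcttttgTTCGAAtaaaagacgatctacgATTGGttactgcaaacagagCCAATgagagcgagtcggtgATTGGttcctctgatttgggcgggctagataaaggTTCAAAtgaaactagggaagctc
Mcm5, chr8:75109259-75109508, plus strand: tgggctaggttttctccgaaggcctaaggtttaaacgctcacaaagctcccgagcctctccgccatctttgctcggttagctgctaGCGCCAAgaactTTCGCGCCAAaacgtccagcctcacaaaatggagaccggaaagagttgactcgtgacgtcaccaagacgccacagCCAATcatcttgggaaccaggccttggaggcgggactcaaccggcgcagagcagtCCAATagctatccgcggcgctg
Mcm6, chr1:128359706-128359955, minus strand: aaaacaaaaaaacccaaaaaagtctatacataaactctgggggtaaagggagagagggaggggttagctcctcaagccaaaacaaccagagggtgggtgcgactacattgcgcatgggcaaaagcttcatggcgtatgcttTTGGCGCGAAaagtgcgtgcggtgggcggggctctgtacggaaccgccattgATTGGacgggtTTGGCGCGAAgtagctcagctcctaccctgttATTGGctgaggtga
Ccna1, chr3:55055056-55055305, minus strand: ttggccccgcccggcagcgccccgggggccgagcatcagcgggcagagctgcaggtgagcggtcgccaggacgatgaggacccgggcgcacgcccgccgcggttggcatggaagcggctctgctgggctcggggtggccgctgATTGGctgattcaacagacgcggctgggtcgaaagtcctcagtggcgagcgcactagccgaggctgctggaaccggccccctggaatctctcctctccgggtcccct
Cdk1 held 2 CHR and 2 E2F matches among these bases, with a CHR match beginning 15 bases before the start (-15) and another at -71. Mki67 also held 2 CHR matches, at -116 and -98, and 1 E2F match. Top2a held 4 CHR matches and 6 CCAAT boxes and no E2F match. In Mcm5 there were 3 E2F matches and no CHR match, and in Mcm6 there were 4 E2F matches, which overlap in pairs as TTGGCGCGAA. Ccna1 held 1 CCAAT box.

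**Figure D1:**
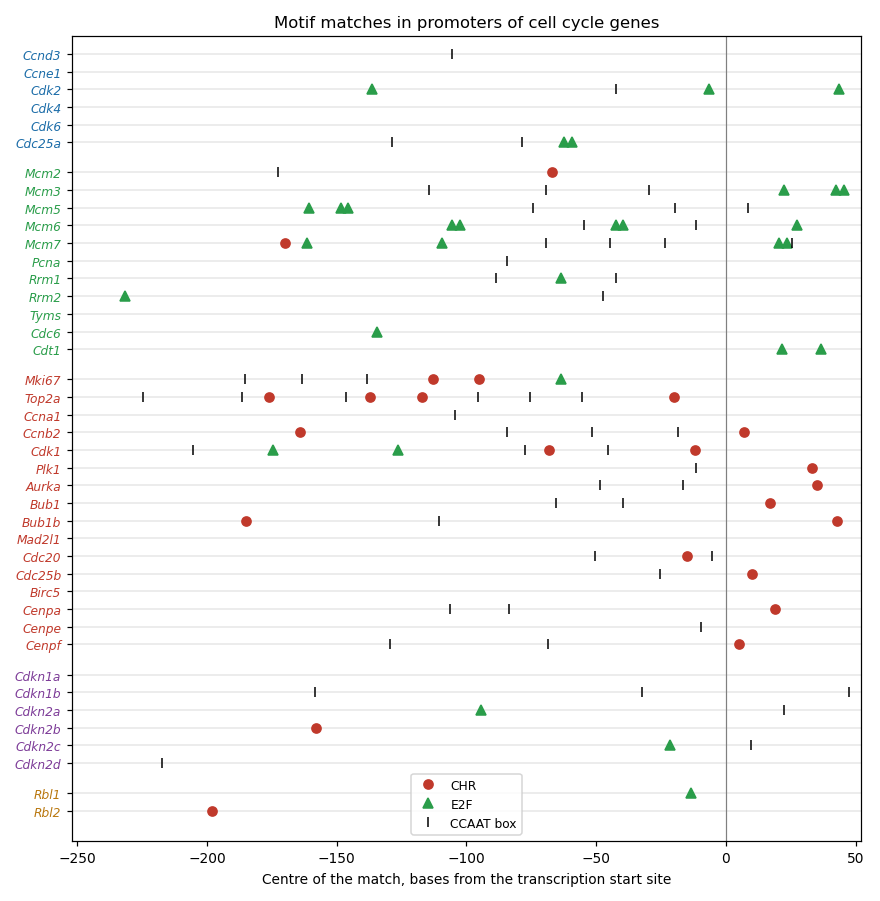
Matches to CHR (red circles), E2F (green triangles) and CCAAT letters (black ticks) in the promoter windows of 41 measured cell cycle genes, one gene per row, by the distance of their centre from the transcription start in bases. Gene names are coloured by group (blue G1, green S phase, red G2 and mitosis, purple inhibitors, brown pocket proteins), and windows of a gene with several starts share a row. Red circles lie in 12 of 16 rows of G2 and mitosis and green triangles in 8 of 11 rows of S phase.

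Almost every cell cycle gene was detected above background in the sorted cells. Of the 51 measured genes 48 were above background (94.1%, against 60.7% of all genes), and the exceptions were Tyms, Cdc6 and Cdkn2a. By group this was 9 of 9 genes of G1, 11 of 13 of S phase, 19 of 19 of G2 and mitosis, 6 of 7 inhibitors and 3 of 3 pocket proteins. The median distance of the mean from the background level was 2.62 for the 51 genes and 1.45 for all genes, on the log2 scale. Above a fixed level of 5 were 50 of 51 genes, all but Cdkn2a, and 81.3% of all genes. The study applied this number to average expression in another comparison, joined to a fold change, so its use on these arrays alone is a different criterion. With a stricter level, the 99th percentile of the means of the genes that should be absent (9.74), 30 of 51 were above it, and 38.6% of all genes. Averaging the probe sets of a gene put Cdk2, Cdc25a, Cdt1, Bub1, Cenpa and Rbl1 under the level, and Aurka no longer passed the test. With the level set by the tissue genes alone (8.88), Ccne1, Ccne2, Cdc25a, Aurkb, Cdkn2b and Cdkn2c were under it, and Mcm2 and Plk1 did not pass.

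**Figure D2:**
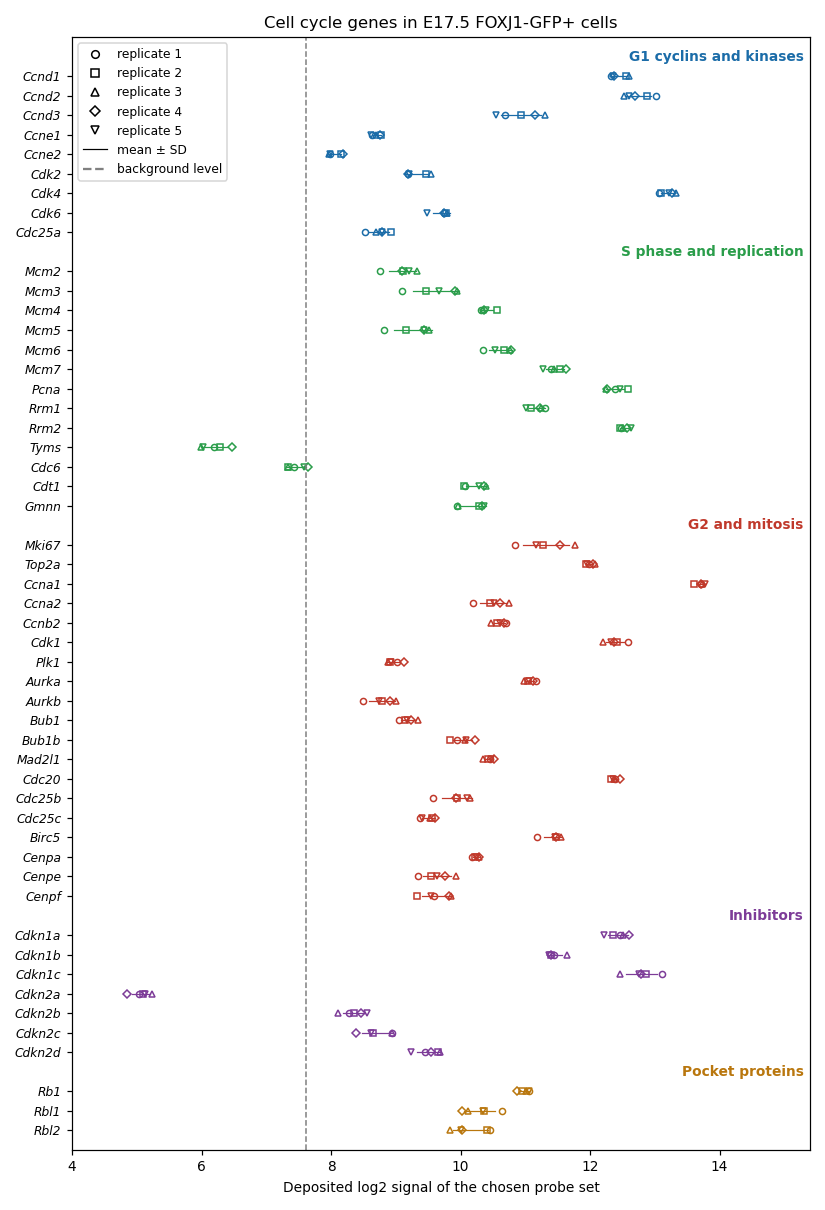
Deposited log2 signal of 51 cell cycle genes in E17.5 FOXJ1-GFP+ cells, by group; each symbol is 1 of 5 replicates, the line spans the mean ± SD, and the dashed line is the background level of 7.62. Tyms, Cdc6 and Cdkn2a are the 3 genes not above the level.

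All 3 D cyclins and their kinases were above background. Ccnd1, a cyclin D that partners Cdk4 and Cdk6, had log2 signals of 12.33, 12.55, 12.60, 12.37 and 12.36 on replicates 1 to 5, and all 3 of its probe sets were higher on replicate 3 than on replicate 1. Ccnd2, another D cyclin, was at 12.74 ± 0.20 (SD, n = 5), with the opposite extremes, highest on replicate 1 (13.02) and lowest on replicate 3 (12.53), and 6 of its 7 probe sets were likewise lower on replicate 3 than on replicate 1. For Ccnd3 the values were 10.69, 10.94, 11.30, 11.15 and 10.55, a range of 0.74, or 1.68-fold. On the brightest probe set of each gene, Ccnd3 had the largest SD of the D cyclins (0.31). Genes of like level had a median SD of 0.15. The other Ccnd3 probe set above the level was highest on replicate 5 (9.18), where the brightest one was lowest. Another Ccnd2 probe set (mean 10.05) had an SD of 0.36.

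Cdk4, the kinase of the D cyclins, had signals of 13.07, 13.09, 13.33, 13.27 and 13.22. Cdk6, its relative, had 9.74, 9.77, 9.79, 9.74 and 9.48, with replicate 5 apart from the other 4 arrays. The other Cdk6 probe set above the level had 9.25, 9.07, 8.98, 8.65 and 8.51, which did not set replicate 5 apart. Both kinases were above the background level on every array.
The E cyclins and Cdk2, which act at the step into S phase, were above background by 0.43 to 1.70. Ccne1 was at 8.64, 8.77, 8.70, 8.76 and 8.62 and Ccne2 at 7.98, 8.16, 7.97, 8.18 and 7.99, on all 5 arrays above 7.62. Ccne2 lay 0.43 ± 0.06 (SE) over the background level (adjusted p = 0.000332, limma). Cdk2 had 9.19, 9.46, 9.55, 9.19 and 9.20 on its brighter probe set, while its other probe set had a mean of 2.89, so that the call rests on 1 of 2 probe sets. Cdc25a, the phosphatase that activates Cdk2, had 8.52, 8.93, 8.69, 8.79 and 8.79, and of its 3 probe sets only this one exceeded the level.

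The S phase group held the 6 Mcm subunits of the replicative helicase, and all 6 were above background. Mcm2 had 8.76, 9.11, 9.33, 9.09 and 9.21, Mcm3 9.09, 9.47, 9.95, 9.91 and 9.67 and Mcm5 8.82, 9.16, 9.51, 9.43 and 9.44 on replicates 1 to 5. In each of these, replicate 1 was the lowest array and replicate 3 the highest. The span was 1.82-fold for Mcm3 and 1.61-fold for Mcm5. Mcm4 (10.40 ± 0.10) and Mcm6 (10.62 ± 0.18) were also lowest on replicate 1, and Mcm7 (11.46 ± 0.14) was lowest on replicate 5. The order did not rest on single probe sets: all probe sets above the level of Mcm2, Mcm3, Mcm4, Mcm5 and Mcm6, 12 in all, were lowest on replicate 1.

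Factors that load and clamp the replication machinery were less alike. Pcna, the sliding clamp of DNA polymerases, had 12.38, 12.59, 12.24, 12.27 and 12.46, highest on replicate 2. Cdt1, which loads the Mcm ring, had 10.07, 10.06, 10.39, 10.37 and 10.29, with replicates 3, 4 and 5 above replicates 1 and 2. Gmnn, which encodes geminin, the inhibitor of Cdt1, was at 10.18 ± 0.21 with replicates 1 and 3 the lowest (9.94 and 9.96). Cdc6, the other loading factor, had 7.43, 7.33, 7.33, 7.65 and 7.59, just below the background level by 0.16 (mean minus level -0.16), and exceeded it on 1 array only.
The ribonucleotide reductase subunits, which make deoxyribonucleotides, were above background, with Rrm1 at 11.18 ± 0.12 and Rrm2 at 12.53 ± 0.07. Their other probe sets above the level varied more, with an SD of 0.33 for Rrm1 and of 0.22 and 0.33 for Rrm2. Tyms, thymidylate synthase, was listed by 4 probe sets, none of them above the level. The brightest had 6.20, 6.29, 5.99, 6.47 and 6.03, and the others had means of 5.77, 4.82 and 3.63.

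Genes of G2 and mitosis were above background throughout. Their median SD was 0.11, against 0.15 for all genes above background, and 7 of the 19 exceeded the median SD of genes of like level, as did 5452 of the 11049 genes above background. Ccna1, a cyclin A known in mice from male meiosis, had 13.71, 13.61, 13.73, 13.71 and 13.77. Its sister Ccna2, the cyclin A of dividing somatic cells, had 10.19, 10.46, 10.75, 10.61 and 10.52. The 5 arrays of Ccna1 lay within 0.16, and those of Ccna2 within 0.55, with replicate 1 lowest and replicate 3 highest on both probe sets of Ccna2. Their levels differ, and genes of like level had a median SD of 0.08 for Ccna1 and 0.16 for Ccna2. The SDs of the 2 genes were 0.06 and 0.21.

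Cdk1, the mitotic kinase, had 12.58, 12.41, 12.20, 12.37 and 12.33. Its extremes were exchanged against those of Ccna2, with replicate 1 the highest array and replicate 3 the lowest. Ccnb2, a cyclin B that binds Cdk1, was at 10.60 ± 0.09 and shared these extremes (10.71 on replicate 1 and 10.47 on replicate 3).
Aurka, the kinase of the centrosome and spindle pole, did too, with 11.16, 11.04, 10.98, 11.12 and 11.06. Aurkb, the kinase of the chromosomal passenger complex, had 8.49, 8.79, 9.01, 8.91 and 8.74, lowest on replicate 1 and highest on replicate 3. The passenger subunit Birc5, or survivin, had 11.18, 11.47, 11.55, 11.48 and 11.46, with replicate 1 apart from the other 4 arrays. The highest and the lowest array were thus exchanged between the 2 Aurora kinases, while replicate 4 was the next to highest for both, within ranges of 0.18 for Aurka and 0.52 for Aurkb.

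Mki67, the antigen of proliferating cells, had the widest range of the 51 genes, with 10.84, 11.28, 11.77, 11.54 and 11.17, a span of 0.93 or 1.90-fold. Genes of its level had a median SD of 0.14, against 0.35 for Mki67. Top2a, the topoisomerase that untangles chromosomes and is used beside Mki67 as a marker of cycling cells, had 11.99, 11.94, 12.07, 12.05 and 11.96, within 0.12. Another of its 3 probe sets had its lowest value on replicate 3 (7.95), so the probe sets of this gene do not share an order.

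The remaining kinases and phosphatases of mitotic entry were above background. Plk1, a kinase of mitotic entry, had 9.02, 8.91, 8.88, 9.12 and 8.92. Cdc25b, which activates Cdk1, had 9.57, 9.94, 10.15, 9.93 and 10.10, and its relative Cdc25c had 9.38, 9.56, 9.53, 9.60 and 9.41. Both phosphatases were lowest on replicate 1 on the chosen probe set, with a range of 0.58 for Cdc25b and 0.22 for Cdc25c. Replicate 5 was close to replicate 1 for Cdc25c. The other Cdc25c probe set above the level was lowest on replicate 3 (8.03), with 8.22 on replicate 1.
On their brightest probe sets, genes of the spindle checkpoint and its target had smaller SDs than genes of like level. Bub1 had 9.05, 9.15, 9.34, 9.24 and 9.17, Bub1b was at 10.03 ± 0.15, Mad2l1 at 10.44 ± 0.06 and Cdc20, the activator of the anaphase-promoting complex on which they act, at 12.38 ± 0.05. Another Cdc20 probe set (mean 11.90) had an SD of 0.20, with replicate 3 lowest at 11.57. Of the centromere proteins, Cenpa, the histone H3 variant of centromeres, had 10.18, 10.23, 10.28, 10.29 and 10.24. Cenpe, a kinesin of the kinetochore, had 9.34, 9.54, 9.93, 9.76 and 9.64 and Cenpf, which accumulates in G2, 9.59, 9.33, 9.86, 9.82 and 9.54. Cenpa had the smallest SD of the 51 genes (0.04), while Cenpe and Cenpf (0.22 each) exceeded the median of genes of like level (0.17).

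**Figure D3:**
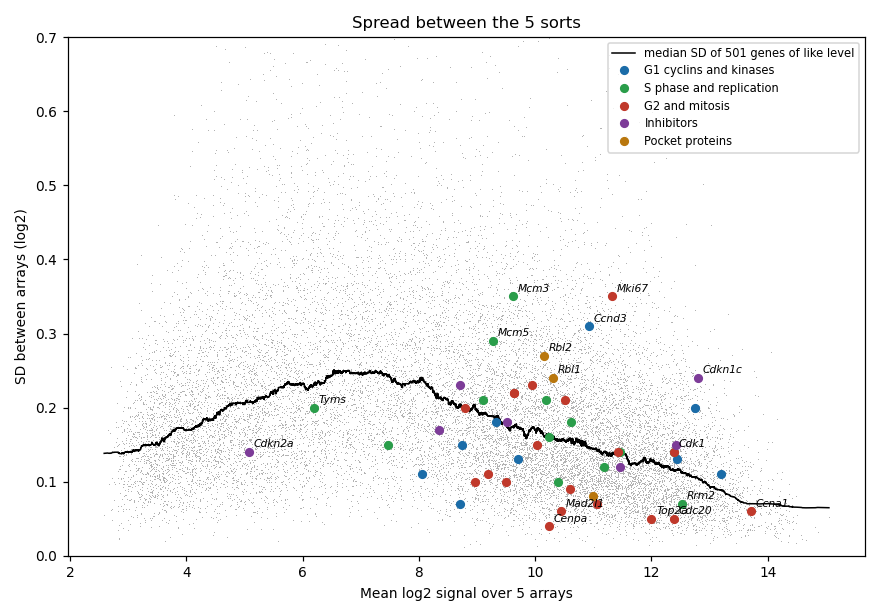
SD between the 5 arrays against mean log2 signal for 51 cell cycle genes (coloured by group) and for all 18193 genes (grey dots, cut at an SD of 0.7), with the median SD of genes of like level as a line. Mki67 and Mcm3 stand at 0.35, and Cenpa, Top2a and Cdc20 at 0.04 to 0.05.

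Of the 7 inhibitors 6 were above background, and the exception belonged to the INK4 family. All 3 genes of the Cip/Kip family, which bind cyclin-Cdk complexes, were above background by 3.83 to 5.18. Cdkn1a, which encodes p21, had 12.47, 12.36, 12.51, 12.60 and 12.22. Its other probe set was highest on replicate 1 (11.36) and lowest on replicate 3 (10.68). Cdkn1b, which encodes p27, had 11.45, 11.40, 11.65, 11.39 and 11.37, with replicate 3 apart from the other 4 arrays. Its other probe set was highest on replicate 2 (11.35) and did not set replicate 3 (11.09) apart. Cdkn1c, which encodes p57, had 13.11, 12.87, 12.46, 12.79 and 12.76, highest on replicate 1 and lowest on replicate 3. These extremes were seen in 19% of the genes above background, and the reverse ones, as in Mki67, in 9.43%. No other inhibitor had the extremes of Cdkn1c on its brightest probe set. A link between Cdkn1c and Mki67 was not tested. The range of Cdkn1c, 0.65 (1.57-fold), was the widest among the inhibitors.

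Of the INK4 family, which bind Cdk4 and Cdk6, 3 of 4 genes were above background. Cdkn2c, which encodes p18, had 8.94, 8.65, 8.94, 8.39 and 8.61 and Cdkn2d, which encodes p19, 9.45, 9.65, 9.68, 9.54 and 9.24. Cdkn2b, which encodes p15, had 8.28, 8.36, 8.11, 8.46 and 8.55 and lay 0.73 ± 0.08 (SE) over the background level (adjusted p = 3.81e-05, limma). Cdkn2a, the gene of p16 and p19Arf, had 5.04, 5.09, 5.24, 4.85 and 5.12, on no array above the level, and did not pass the test against the level of 5 either (adjusted p = 0.253, limma). Its neighbour Cdkn2b was called above background and Cdkn2a was not, each on 1 probe set. With the level set by the tissue genes alone (8.88), Cdkn2b was under it as well.

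Pocket proteins, the targets of the G1 kinases and repressors of E2F genes, were all above background. Rb1 had 11.06, 10.95, 11.01, 10.88 and 11.06, Rbl1, which encodes p107, 10.64, 10.36, 10.12, 10.02 and 10.35 and Rbl2, which encodes p130, 10.46, 10.41, 9.84, 10.03 and 10.01. Replicate 1 was the highest array for Rbl1 and Rbl2, and for Rb1 replicates 1 and 5 shared the highest value. For Rbl2 both probe sets were highest on replicate 1 and lowest on replicate 3. For Rbl1 they disagreed: another probe set above the level had 8.14 on replicate 1 and 8.81, 8.85, 8.92 and 8.84 on the others, so that replicate 1 was its lowest array.

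Across arrays, members of a group did not move as one. The mean deviation of a group from its genes' own means ranged over 0.27 for S phase (replicate 1 at -0.16 and replicate 4 at 0.11), 0.19 for G2 and mitosis, 0.19 for G1 and 0.13 for the inhibitors. Without replicate 1 the range for S phase was 0.11. For the 3 pocket proteins it was 0.41 (0.24 on replicate 1 and -0.17 on replicate 4), and 0.26 without replicate 1. The 11049 genes above background had a range of 0.04. A mean over so many genes, on arrays with medians of 7.18 to 7.26, is no measure for the range of a small group.

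The arrays at the extremes differed between genes of a group. Replicate 1 was the lowest array for 19 of the 51 genes (against 23.5% of all genes). Replicate 3 was the highest for 21 (against 18.3% of all genes) and the lowest for 12 (against 30.3% of all genes). Of the 51 genes, 13 were lowest on replicate 1 and highest on replicate 3 (25.5%, against 7.82% of all genes and 9.43% of those above background). They were Ccnd1, Cdk2 and Cdk4 of G1, Mcm2, Mcm3 and Mcm5 of S phase, and Mki67, Ccna2, Aurkb, Bub1, Cdc25b, Birc5 and Cenpe of G2 and mitosis. The opposite extremes, highest on replicate 1 and lowest on replicate 3, were seen in 6 genes (11.8%, against 14.2% of all genes and 19% of those above background): Ccnd2, Ccnb2, Cdk1, Aurka, Cdkn1c and Rbl2. These counts describe 2 arrays chosen after the values were seen and carry no test. With arrays centred on their medians the first pattern held 11 genes and with quantile normalization 15, and the opposite one held 6 under both. With probe sets averaged within each gene they held 8 and 4, and Rb1 then joined the first. The choice of probe set matters at this size of difference: of 26 genes with at least 2 probe sets above the level, 10 had probe sets that differed in sign between replicates 3 and 1.

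Markers of other lung cells moved over the same arrays. Replicate 1 was the lowest array for endothelial genes (mean deviation -0.53, with replicate 3 highest at 0.43), mesenchymal genes (-0.26, with replicate 3 highest at 0.31), white blood cell genes (-0.77, with replicate 5 highest at 0.39), alveolar type 1 genes (-0.33) and alveolar type 2 genes (-0.62, with replicate 5 highest at 0.61), each over the genes above background. Of the white blood cell list, Ptprc, C1qa, C1qc, Itgam and Aif1 were not above background, nor were Dcn, Lum and Fgf10 of the mesenchymal list. Other lists ran differently: club and goblet genes were lowest on replicate 5 (-0.29) and highest on replicate 4 (0.41), with 0.11 on replicate 1, neuroendocrine genes were highest on replicate 1 (0.17) and lowest on replicate 4 (-0.27), mesothelial genes were lowest on replicate 3 (-0.35) with 0.16 on replicate 1, and the 2 basal genes were lowest on replicates 1 and 2 (-0.18 and -0.19). Several of these ranges rest on replicate 1: without it that of white blood cell genes was 0.56 in place of 1.16, of endothelial genes 0.58 in place of 0.96, of alveolar type 2 genes 0.68 in place of 1.24, of mesenchymal genes 0.38 in place of 0.57 and of alveolar type 1 genes 0.09 in place of 0.46. The mean deviation of the multiciliated list stayed between -0.03 and 0.03, but single markers varied more, and 5 of 15 had an SD above that of genes of like level. Dnah5, an axonemal dynein, had 10.85, 10.69, 9.24, 9.74 and 9.69, highest on replicate 1 and lowest on replicate 3. The part of these cells in the order of Mki67, the Mcm genes and the others was not tested.

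**Figure D4:**
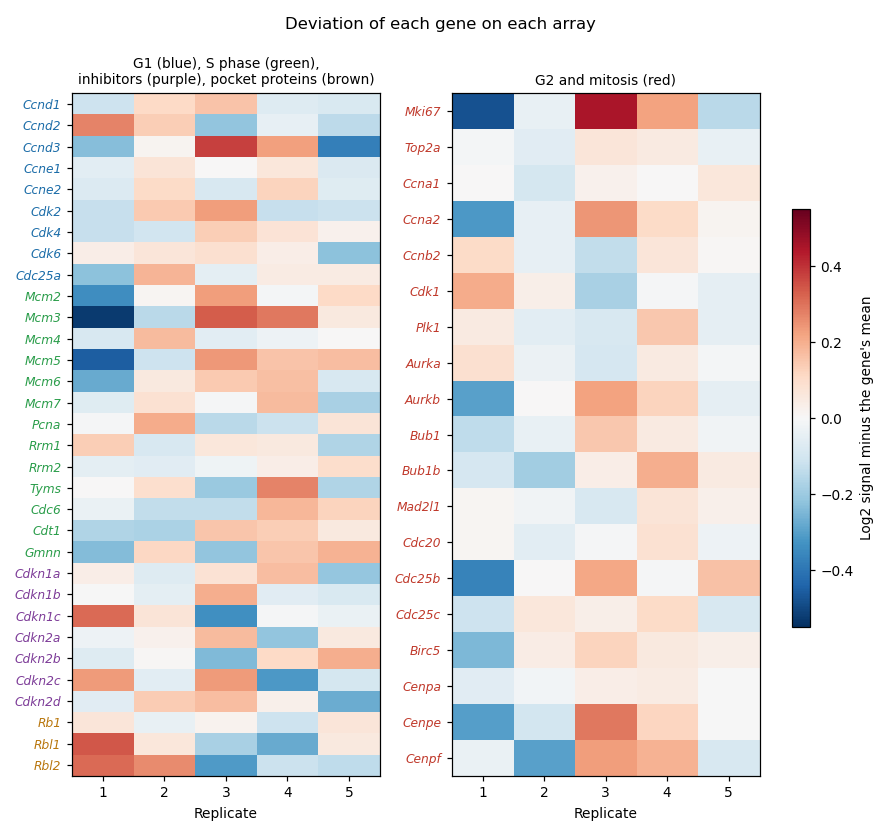
Log2 signal of each of 51 cell cycle genes minus its own mean over the 5 arrays, in colour (red above, blue below), by replicate. Mki67, Ccna2, Aurkb, Cenpe, Mcm2, Mcm3 and Mcm5 are blue on replicate 1 and red on replicate 3, and Cdk1, Cdkn1c, Ccnd2 and Rbl2 the reverse.

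**Figure D5:**
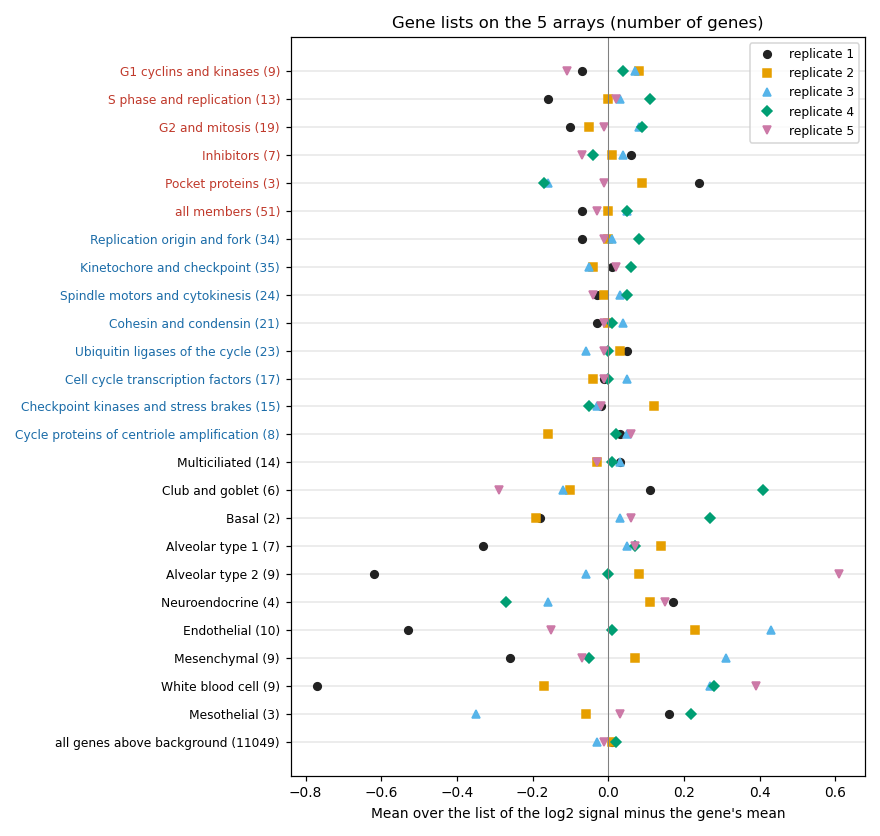
Mean deviation of gene lists from their genes' own means on each of 5 arrays, in log2 units (symbols are replicates, numbers of genes in brackets). Red names are the cell cycle groups, blue names wider cell cycle lists and black names markers above background and all genes above background; the S phase group spans 0.27, the white blood cell markers 1.16 and the multiciliated markers 0.06.

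Wider lists of the cycle gave the same picture of near-complete detection. Of 177 measured genes in 8 lists, 163 were above background (92.1%, against 60.7% of all genes), with 175 above the level of 5. All 23 genes of the ubiquitin ligases that remove cyclins and their inhibitors were above background, and so were all 8 cycle-related genes of centriole amplification. For replication origins and forks the count was 31 of 34, for kinetochore and checkpoint 33 of 35, for spindle motors and cytokinesis 21 of 24, for cohesin and condensin 19 of 21, for transcription factors of the cycle 14 of 17 and for checkpoint kinases and stress-induced brakes 14 of 15.

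The genes not above background were Orc1 (6.41 ± 0.17), Mcm10 (6.94 ± 0.23) and Gins3 (7.36 ± 0.40) of replication, and Cenpm (7.51 ± 0.13) and Ska1 (7.84 ± 0.22) of the kinetochore. Of the spindle motors these were Kif14 (4.63 ± 0.18), Kif15 (3.72 ± 0.14) and Kif18a (7.52 ± 0.30), and of the chromosome complexes the separase Espl1 (7.61 ± 0.10) and Esco2 (7.85 ± 0.23). Mybl1 (7.25 ± 0.30), Mybl2 (7.72 ± 0.21) and Lin52 (7.20 ± 0.53), all of the family or complex of the MuvB-B-Myb activator, and Pkmyt1 (7.53 ± 0.22), an inhibitory kinase of Cdk1, completed the 14. Ska1, Esco2 and Mybl2 had means over the level by 0.22, 0.22 and 0.09 and did not pass the test (adjusted p = 0.0543, 0.0561 and 0.371, limma).

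Foxm1, which activates mitotic genes with the MuvB complex, was 0.36 over the level at 7.99 ± 0.24 (adjusted p = 0.00834, limma). The 8 E2F genes were all above background (E2f2 at 8.34 ± 0.15 and E2f3 at 10.84 ± 0.14, for example). Among the 3 most variable genes of the replication and kinetochore lists were Cdc7 (10.01 ± 0.35), the kinase that fires origins, Prim1 (10.95 ± 0.32), a primase subunit, and Incenp (11.68 ± 0.32) and Cdca8 (12.51 ± 0.26), subunits of the Aurora B complex. Cdc7, Prim1, Incenp and Cdca8 were all lowest on replicate 1, as Aurkb and Birc5 were. Kntc1 (9.92 ± 0.47), of the kinetochore, was highest on replicate 1, with 10.72 on replicate 1 and 9.53 to 9.88 on the others. Kif2c (9.71 ± 0.25), Aspm (9.48 ± 0.25), Ncapd2 (9.40 ± 0.21) and Ncapg2 (9.24 ± 0.21) were each among the 3 most variable of their lists, as were Fbxw7 (11.35 ± 0.19), Anapc10 (10.90 ± 0.20) and Anapc11 (11.77 ± 0.27) among the ubiquitin ligases.

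Genes that put proteins of the cycle to use in centriole amplification had a median SD of 0.14, against 0.15 for all genes above background, and 4 of 8 exceeded the median of genes of like level. Ccno, a cyclin needed for multiciliated cells, was at 13.72 ± 0.04, Myb at 13.77 ± 0.06, Plk4, which initiates new centrioles, at 12.50 ± 0.14 and Deup1 at 12.94 ± 0.14. Cep152 (11.17 ± 0.27), Cdc20b (9.14 ± 0.23) and Stil (10.36 ± 0.15) varied most in this list, whose mean deviation spanned 0.22, lowest on replicate 2, and 0.04 without replicate 2. The stress-induced brakes Gadd45a (11.90 ± 0.49), Gadd45b (11.80 ± 0.35) and Gadd45g (11.13 ± 0.23) varied most in their list, with replicate 2 highest for each of the 3 genes.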

How the data were processed

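RNA of GFP+ cells from 5 replicates was measured on Affymetrix mouse genome arrays. The authors deposited log2 signals per probe set. Their normalization was not given in the sources used here. No normalization was added. Of 45037 probe sets (64 controls left out), 34945 were annotated to 1 gene, 932 to several and 9160 are unnamed here; 99.4% of the gene identifiers matched the GRCm38.p6 RefSeq table. With several probe sets a gene took the one with the highest mean. limma 3.58.1 (R 4.3.3; lmFit and eBayes, intercept only) tested each mean, one-sided, against the background level, with Benjamini-Hochberg adjustment over all 45037 probe sets. The test was also run on simulated data. Summaries used Python 3.11.15 with numpy 2.4.6 and pandas 2.3.3. The precision is limited by the number of arrays. Promoters came from RefSeq.

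The cell cycle genes, the wider lists, the markers and the background genes were chosen with earlier results of these data known, and the motifs after the values were known. Values on every array are given for genes not above background, genes whose call changes under an alternative, the 8 with the largest SD, those with 1 array apart by Dixon's criterion, and a fixed list of cyclins, kinases, inhibitors and proliferation markers. For the wider lists, genes not above background and the 3 of each list with the largest SD are named. The alternatives were other probe set rules, normalizations, background levels, a filter on dim probe sets, and leaving out each replicate.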

Additional observations from a re-analysis of the deposited data

Results flagged for a closer look

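In 3 of the 51 cell cycle genes 1 array stood apart from the other 4 by Dixon's criterion, the gap to the nearest array over the whole range. These were Cdk6 with 9.48 on replicate 5, Birc5 with 11.18 on replicate 1 and Cdkn1b with 11.65 on replicate 3. The other Cdkn1b probe set was highest on replicate 2 (11.35) and not on replicate 3 (11.09). For Cdk6 another probe set above the level had 8.51 on replicate 5, close to 8.65 on replicate 4. Chance flags about 1 in 20 groups of 5 values, and 5% of all genes on these arrays passed the criterion. A cause was not tested.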

How the results depend on the processing

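All 51 calls were the same with quantile normalization, arrays centred on their medians, dim probe sets left out, a rule of all 5 arrays above the level, and each replicate left out. The background level decided most changes. At the 99th percentile (9.74) 30 of 51 genes were above it, with 4 of G1, 12 of G2 and mitosis, 3 inhibitors, 98 of the wider lists and 7023 of all genes. There the mean minus the level was -1.05 for Ccne1, -1.69 for Ccne2, -0.43 for Cdk2, -0.04 for Cdk6, -1.0 for Cdc25a, -0.64 for Mcm2, -0.13 for Mcm3, -0.47 for Mcm5, -0.78 for Plk1, -0.96 for Aurkb, -0.56 for Bub1, -0.25 for Cdc25c, -0.10 for Cenpe, -0.12 for Cenpf, -1.39 for Cdkn2b, -1.04 for Cdkn2c and -0.23 for Cdkn2d, and Cdc25b (0.19) did not pass. With tissue-restricted genes alone (8.88) it was -0.18 for Ccne1, -0.82 for Ccne2, -0.13 for Cdc25a, -0.09 for Aurkb, -0.53 for Cdkn2b and -0.17 for Cdkn2c, and Mcm2 (0.22) and Plk1 (0.09) did not pass. With receptor genes alone (5.45) Tyms (0.75) and Cdc6 (2.01) were above, and over a fixed level of 5 Tyms (1.20) and Cdc6 (2.46) were, while Cdkn2a (0.07) did not pass. With all probe sets averaged (level 7.55) it was -1.44 for Cdk2, -0.19 for Cdc25a, -0.29 for Cdt1, -0.45 for Bub1, -0.41 for Cenpa and -0.58 for Rbl1, and Aurka (0.15) did not pass. With only probe sets without a suffix (7.46), which measured 43 of the 51, it was -4.56 for Cdk2 and -1.19 for Cenpa. The range of the S phase group between arrays was 0.11 to 0.27 when 1 replicate was left out, with 0.11 without replicate 1. No paired analysis was possible because all samples belonged to 1 group.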
